A study of Mus musculus with 24 samples.

Results

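Wild-type bone marrow-derived macrophages (BMDM) held in IL4 for 24 h were compared with the same kind of culture held in IL4 for 10 h, using 2 RNA-seq libraries at each time. These are 4 of the 24 samples of the series and 4 of its 12 BMDM libraries, and they were chosen by their labels alone. Marrow came from C57BL/6 mice, was grown for 7 days in medium with M-CSF at 10 ng/ml and 30% L929-conditioned medium, and was moved to DMEM the night before IL4 was added at 20 ng/ml. The same genotype at 0 h, without IL4, gave the starting level. Cultures from Tet2 knockout mice of the same strain, handled the same way at 0, 10 and 24 h with 2 libraries each, gave a set of libraries that shares none with wild type. The other 12 samples, tumour macrophages and immunoprecipitated DNA, are not analysed here.

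The authors deposited FPKM, fragments scaled by gene length and by library total, so the absolute depth of the libraries is unknown and the number of libraries limits the precision. Total FPKM ran from 365140 to 557218 and relative depth, read from the steps between low values, from 0.87 to 1.42. A single RNA, Rpph1 of ribonuclease P, took 11% to 16.5% of total FPKM, with the lowest share in replicate 1 of 24 h and 15.5% in replicate 2. The series text calls the 2 libraries of a group biological replicates without saying whether they came from separate mice. No untreated culture was taken at 10 or 24 h, so time in IL4 and time in culture cannot be told apart. These are bulk values, so fewer cells of a type and less RNA per cell cannot be told apart either. FPKM of Tet2 did not separate the genotypes (8.74 and 8.81 in wild type at 10 h against 7.22 and 8.19, then 9.38 and 9.82 at 24 h against 11.3 and 10.3), so the second set is called labelled knockout.

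IL4 binds a receptor that contains IL4RA, and the kinases on that receptor activate the transcription factor STAT6, which switches on the program called alternative activation: arginase, chitinase-like proteins, resistin-like secreted proteins, lectins and certain chemokines. Some of these genes respond directly to STAT6 and others need factors made after it, and IL4 also supports macrophage division and fusion. RNA here was depleted of ribosomal RNA and not selected for poly(A) tails, so the mRNAs of replication-dependent histones, which have no such tail, are kept.

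Between 10 and 24 h, 1218 of the 10510 genes tested rose (11.6%) and 1508 fell (14.3%; limma on log2(FPKM + 1), adjusted p under 0.05). A difference of at least 1 on this scale was reached, past the threshold, by 186 genes that rose (1.77%) and 85 that fell (0.809%). The groups of 2 libraries did not overlap for 63.3% of the genes tested, so non-overlap alone says little here. Without replicate 1 of 10 h, 699 rose and 685 fell, and without replicate 2 of 10 h the counts were 583 and 647. The split of calls also moved with the scaling. Higher calls made up 44.7% of the calls as deposited, 54.6% (1732 higher, 1438 lower) after median-of-ratios scaling, 58.2% (1495 and 1075) without replicate 1 of 24 h and 32.2% (918 and 1935) without replicate 2 of 24 h. The median of all genes was −0.04 as deposited.

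Each gene was then placed by both of its steps in wild type, 0 to 10 h and 10 to 24 h. A step of at least 1 past the threshold counted as a move, and a step within 0.5 of 0 that did not pass counted as flat. Late risers, flat to 10 h and up afterwards, numbered 90, of which 24 were histone cluster genes. Climbers, up in both steps, numbered 39. Fall-back genes, up by 10 h and down by 24 h, numbered 20. Of the rest, 261 genes rose early and stayed flat (early plateau), 30 were flat and then fell (late fallers), 7 fell in both steps and 6 fell and then rose. Single libraries moved some of these numbers. There were 31 fall-back genes without replicate 1 of 10 h, 168 plateau genes without replicate 2 of 0 h, 11 genes falling in both steps without replicate 2 of 24 h, and 11 falling and rising without replicate 2 of 0 h or replicate 1 of 24 h. At the edges of the rule, Car2 (1.005) was the last late riser inside and Cxcl14 (0.985) lay just outside. Slc14a1 (−1.01) was the last fall-back gene inside and Wdr86 (−0.995) lay outside. Since wild-type values chose the members, the wild-type levels below describe them, and the step in the labelled knockout did not enter the rule. All 12 libraries shared the filter and the estimate of spread, however, and with wild-type libraries only there were 93 late risers, 325 plateau genes and 34 late fallers.

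Ear2, an eosinophil-associated ribonuclease, had the largest step among the late risers at 5 FPKM or more. It stood at 0.3 and 0.208 FPKM at 0 h, 0.714 and 0.348 at 10 h, and 55.7 and 49.8 at 24 h. Almost all of its message appeared after 10 h, and the step was 5.14 ± 0.20 (log2 difference ± SE). Reads of Ear2 can be split with the near-identical Ear3, Ear10 and Ear11, so the sharing among these genes is uncertain. Mmp12, the macrophage elastase, had 6.79 and 5.50 FPKM at 0 h, 7.27 and 6.77 at 10 h and 76.9 and 70.3 at 24 h. It was flat to 10 h, and both 24 h libraries lay far above all 4 earlier ones (3.22 ± 0.16). Slamf9, a receptor of the SLAM family, went from 0.304 and 0.658 to 6.38 and 5.77 FPKM (2.26 ± 0.17). Clec4b1, a C-type lectin receptor of myeloid cells, went from 9.64 and 7.15 to 45.9 and 43.6 FPKM (2.30 ± 0.15). In the labelled knockout the same steps were 4.89 for Ear2, 3.53 for Mmp12, 2.14 for Slamf9 and 2.33 for Clec4b1, and each passed.

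Promoters of these late risers are shown so that the reader can see what precedes genes with so similar a time course. They are the 250 bases before the RefSeq start in GRCm38.p6, 5′ to 3′ on the gene's strand, with matches to any of 9 searched motifs in capitals. Ear2 lies at chr14:44102404-44102653 (plus strand), Mmp12 at chr9:7344147-7344396 (plus), Clec4b1 at chr6:123049712-123049961 (plus) and Slamf9 at chr1:172475110-172475359 (plus). Capitals mark the CCAAT box in Ear2. They mark the PU.1 motif in Mmp12 (on the other strand), the CCAAT box and the interferon element in Clec4b1, and the E-box and the PU.1 motif in Slamf9.
Ear2: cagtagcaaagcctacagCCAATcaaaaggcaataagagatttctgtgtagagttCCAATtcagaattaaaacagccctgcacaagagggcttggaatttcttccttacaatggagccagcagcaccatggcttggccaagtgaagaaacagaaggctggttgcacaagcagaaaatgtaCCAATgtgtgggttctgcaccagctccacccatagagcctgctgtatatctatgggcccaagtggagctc
Mmp12: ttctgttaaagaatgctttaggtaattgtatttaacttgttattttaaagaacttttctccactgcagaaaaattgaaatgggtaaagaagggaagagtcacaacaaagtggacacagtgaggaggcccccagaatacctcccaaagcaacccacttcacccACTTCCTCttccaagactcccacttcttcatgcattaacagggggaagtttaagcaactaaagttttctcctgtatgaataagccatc
Clec4b1: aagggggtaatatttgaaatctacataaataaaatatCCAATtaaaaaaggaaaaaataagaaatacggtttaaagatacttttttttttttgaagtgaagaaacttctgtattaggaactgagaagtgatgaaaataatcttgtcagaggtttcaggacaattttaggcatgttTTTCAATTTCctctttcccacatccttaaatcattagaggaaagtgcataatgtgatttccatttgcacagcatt
Slamf9: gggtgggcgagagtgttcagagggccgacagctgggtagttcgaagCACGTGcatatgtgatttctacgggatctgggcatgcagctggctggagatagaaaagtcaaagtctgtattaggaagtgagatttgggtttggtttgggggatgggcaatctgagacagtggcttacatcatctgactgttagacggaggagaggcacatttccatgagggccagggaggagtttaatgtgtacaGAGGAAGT

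All 9 motifs were searched on both strands. The CCAAT box is spelled by its name. The E-box was searched as CACGTG, the AP-1 motif as TGANTCA and the PU.1 motif as GAGGAAGT. The interferon element was 2 copies of TTTC with 2 bases between them. The STAT6 spacing was TTC and GAA with 4 bases between, and the STAT spacing the same with 3, so that these can overlap. The E2F motif was either TTTCCCGC or its variant TTTGGCGC. The ER stress element was a CCAAT box followed after 9 bases by CCACG, so each match also holds a CCAAT box. Of the 90 late risers, 73 had a promoter in the table (81.1%), and 45 of these held CCAAT (61.6%), against 37.5% of all 27025 promoters. Many of those belong to genes not tested here. Of the genes tested 8396 had a promoter (79.9%), and 40.9% of these held CCAAT. Outside the histone clusters 24 of the 51 late riser promoters found held it (47.1%), so the histone cluster genes raised the share of 61.6%. Only those 51 of 66 genes had a promoter (77.3%), so a comparison of 47.1% with other promoters is void for missing entries. Promoters of the genes tested were also incomplete (79.9%), so shares among them carry a like limit. The STAT6 spacing stood in 6 late risers (8.22%), against 6.76% of all promoters and 5.65% of those of genes tested. These matches describe letters and are not binding sites.

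**Figure D1:**
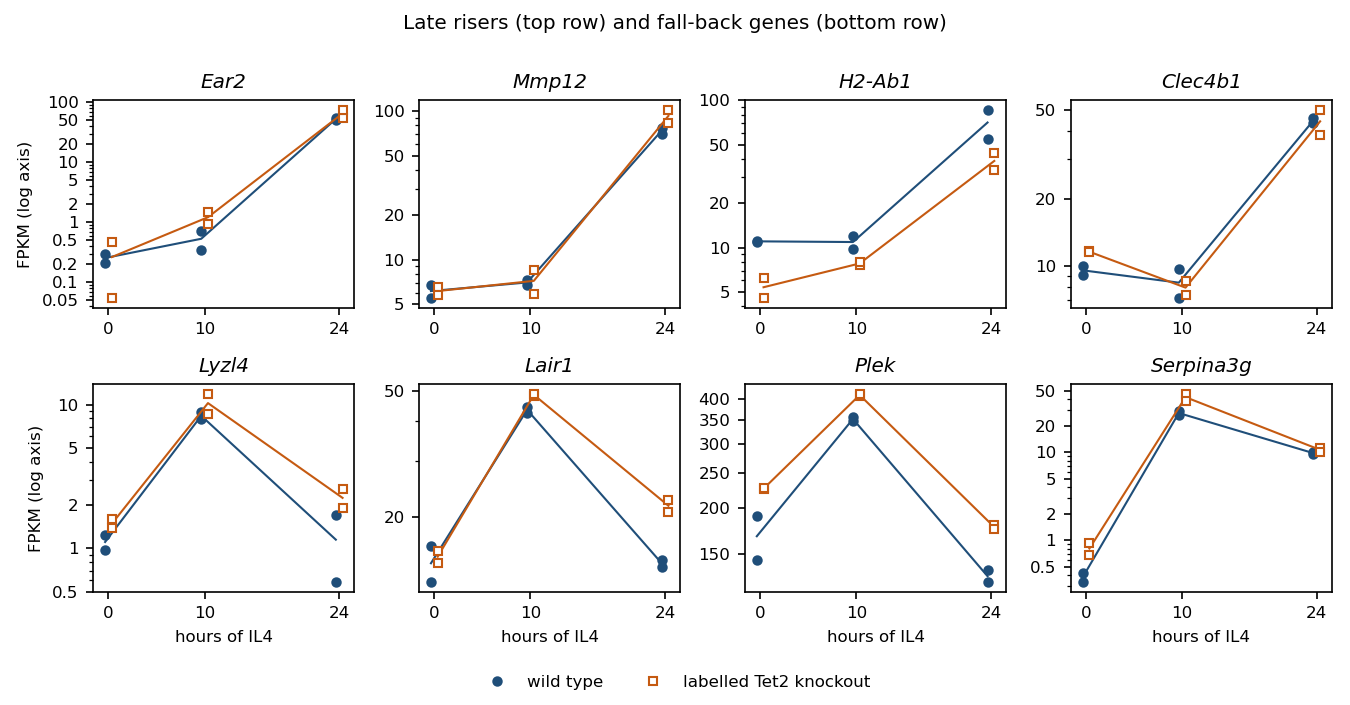
FPKM (log axis) against hours of IL4 for 4 late risers in the top row and 4 fall-back genes in the bottom row, with 1 point per library and lines through the group means for wild type (filled circles) and labelled knockout (open squares). Each late riser is highest at 24 h and has its larger step after 10 h, while the fall-back genes peak at 10 h, in both genotypes.

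Genes of antigen presentation through MHC class II rose mainly after 10 h, and only part of them had risen before. Of its 10 list members tested, 6 had risen by 10 h (background 28.2%), with a median of 0.69. Between 10 and 24 h 9 rose (background 11.6%), with a median of 1.58 against −0.04 over all genes, and 10 rose in the labelled knockout, where 12.1% of genes tested did. Ciita, the coactivator that switches on MHC class II genes, rose from 0.844 and 0.753 FPKM at 10 h to 7.15 and 9.67 at 24 h (2.37 ± 0.13; adjusted p = 3.2e-06). H2-Ab1, the beta chain of the I-A molecule, had 11.1 and 11 FPKM at 0 h, 12.1 and 9.76 at 10 h and 54.9 and 86.8 at 24 h. Its step was 2.56 ± 0.21, and the 2 libraries at 24 h differed from each other by more than those at 10 h did. The alpha chain gene H2-Aa followed with 17.2 and 16.3 going to 55.6 and 87.4 FPKM (1.99 ± 0.19). H2-Eb1, of the I-E molecule, moved from 5.39 and 3.32 to 15.5 and 21.5 FPKM (1.87 ± 0.24). Cd74, the invariant chain that chaperones these molecules, had already gone up by 10 h and rose again from 132 and 111 to 458 and 671 FPKM (2.19 ± 0.17). The peptide-exchange genes H2-DMa and H2-DMb1 rose by 1.02 ± 0.14 and 1.21 ± 0.17, and Ctss, the protease that trims the invariant chain, by 1.29 ± 0.15, from 1123 and 1057 to 2692 and 2650 FPKM.

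Anxa2, a membrane-binding annexin and another late riser, stood at 172 and 141 FPKM at 0 h, 174 and 157 at 10 h and 600 and 645 at 24 h, a step of 1.91 ± 0.12. Its partner S100a10 went from 101 and 92.2 to 278 and 260 FPKM (1.47 ± 0.14), so both members of that complex moved in the same interval. Gpx1, a glutathione peroxidase, went from 120 and 118 to 326 and 460 FPKM (1.69 ± 0.16). Itgb2, the beta chain of leukocyte integrins, went from 91.9 and 86.9 to 223 and 254 (1.41 ± 0.11), and the scavenger receptor Cd36 from 185 and 173 to 439 and 405 (1.23 ± 0.15). The proteases Mmp19 (9.51 and 8.62 to 28.9 and 35.7 FPKM) and Ctsk (1.54 and 1.5 to 7.74 and 6.67 FPKM) had steps of 1.72 ± 0.11 and 1.70 ± 0.12. Ccl22, a chemokine that attracts CCR4-bearing T cells, was below 0.4 FPKM in every wild-type library through 10 h and reached 3.33 and 3.89 at 24 h (1.91 ± 0.14). Fads2, a fatty acid desaturase, went from 0.220 and 0.238 to 2.60 and 2.34 FPKM (1.5 ± 0.12).

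The 39 climbers held the best-known products of IL4-treated macrophages, which were up by 10 h and far higher by 24 h. Chi3l3, a chitinase-like secreted protein, had 5.60 and 3.91 FPKM at 0 h, 20.2 and 16.6 at 10 h and 358 and 341 at 24 h, so most of its rise came in the later step on both scales (4.18 ± 0.14, against 1.76 for the earlier step). Its reads can be split with the near-identical Chi3l4, which had 0.578 and 0.560 at 10 h and 8.64 and 7.54 at 24 h (2.53 ± 0.10). Retnla, a resistin-like secreted protein, had 13.3 and 10.9 FPKM, then 1615 and 1393, then 7337 and 7285. On the log2 scale its earlier step (6.84) was the larger one and the later step was 2.28 ± 0.18, while in FPKM more was added after 10 h. Arg1, the arginine-splitting enzyme, went from 1.38 and 1.03 through 186 and 159 to 1065 and 991 FPKM (2.57 ± 0.12). Mgl2, a galactose-type lectin, went from 5.55 and 3.82 through 143 and 127 to 509 and 585 FPKM (2.01 ± 0.17). Every climber rose again in the labelled knockout (39 of 39, against 12.1% of genes tested there), with a median of 1.22 there and 1.35 in wild type.

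Several genes of cell fusion were climbers as well. Dcstamp, which macrophages need to fuse into giant cells and osteoclasts, had 0.0883 and 0.116 FPKM at 0 h, 2.34 and 1.88 at 10 h and 28.6 and 34.0 at 24 h (3.38 ± 0.17). Ocstamp, its relative, went from 1.92 and 1.03 at 10 h to 16.6 and 28.2 at 24 h (3.22 ± 0.21). Itgax, the integrin CD11c, went from 11.1 and 9.17 to 67.9 and 78.6 FPKM (2.74 ± 0.14), and Acp5, tartrate-resistant acid phosphatase, from 1.99 and 1.30 to 4.91 and 6.88 (1.38 ± 0.16). Of the 19 fusion genes tested, 9 rose and 1 fell (backgrounds 11.6% and 14.3%). Fusion itself was not measured. Among further climbers, Fn1, fibronectin, went from 5.29 and 5.57 to 33.2 and 43.3 FPKM (2.60 ± 0.13), the clotting factor gene F10 from 19.3 and 17.6 to 84.1 and 90.6 (2.18 ± 0.10), F7 from 2.47 and 1.88 to 10.7 and 12.9 (2.01 ± 0.13), and complement C3 from 19.2 and 17.3 to 69.2 and 78.8 (1.96 ± 0.12).

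Genes of cell division rose together after 10 h. Of 43 genes of G2 and mitosis tested, 40 rose and 1 fell, with a median of 0.69, where 11.6% of all genes tested rose and 14.3% fell. In the labelled knockout 40 rose (background 12.1%), with a median of 1.08. Of 42 genes of DNA replication, 26 rose (37 in the labelled knockout, median 0.75), with a median of 0.47 in wild type. Without replicate 2 of 10 h, 16 of these 42 rose. Top2a, the topoisomerase that untangles replicated DNA, had 1.73 and 1.54 FPKM at 0 h, 1.29 and 1.30 at 10 h and 6.94 and 5.56 at 24 h (1.65 ± 0.13). Prc1, a crosslinker of the spindle midzone, went from 0.484 and 0.314 to 2.64 and 2.45 FPKM (1.34 ± 0.10), and Mki67, the proliferation antigen, from 1.51 and 1.71 to 3.02 and 2.81 (0.59 ± 0.10). For replication, Mcm5 of the helicase went from 2.00 and 1.63 to 4.91 and 6.04 FPKM (1.20 ± 0.14). Rrm2, which makes deoxynucleotides, went from 0.352 and 0.183 to 1.94 and 1.96 (1.22 ± 0.10), and thymidine kinase Tk1 from 0.597 and 1.06 to 3.32 and 3.62 (1.30 ± 0.18). The member that fell was Cenpa, the centromeric histone, from 18.8 and 19.9 to 10.3 and 15.4 FPKM (−0.57 ± 0.17; adjusted p = 0.0345). Its limma call was lost without replicate 1 of 10 h (adjusted p = 0.107), replicate 2 of 10 h (0.165) or replicate 1 of 24 h (0.189).

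Histone cluster genes, a list added after the values were seen, moved in the same interval. Of 64 tested, 35 rose and 3 fell (backgrounds 11.6% and 14.3%), and 45 rose in the labelled knockout (12.1%). The 3 that fell became 1 without either 10 h library. Hist1h3c, a histone H3 gene, had 9.13 and 6.23 FPKM at 0 h, 7.18 and 8.37 at 10 h and 28.4 and 54.5 at 24 h. That step, 2.21 ± 0.25, came with a wide gap between the 24 h libraries. Hist1h1b, a linker histone, was steadier, with 7.74 and 8.13 going to 34.7 and 38.4 FPKM (2.07 ± 0.23), and Hist1h2bb had 28.4 and 35.5 going to 85.3 and 120.0 FPKM (1.64 ± 0.19). Members of these clusters are near-identical, so the sharing of reads among them is uncertain.

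**Figure D2:**
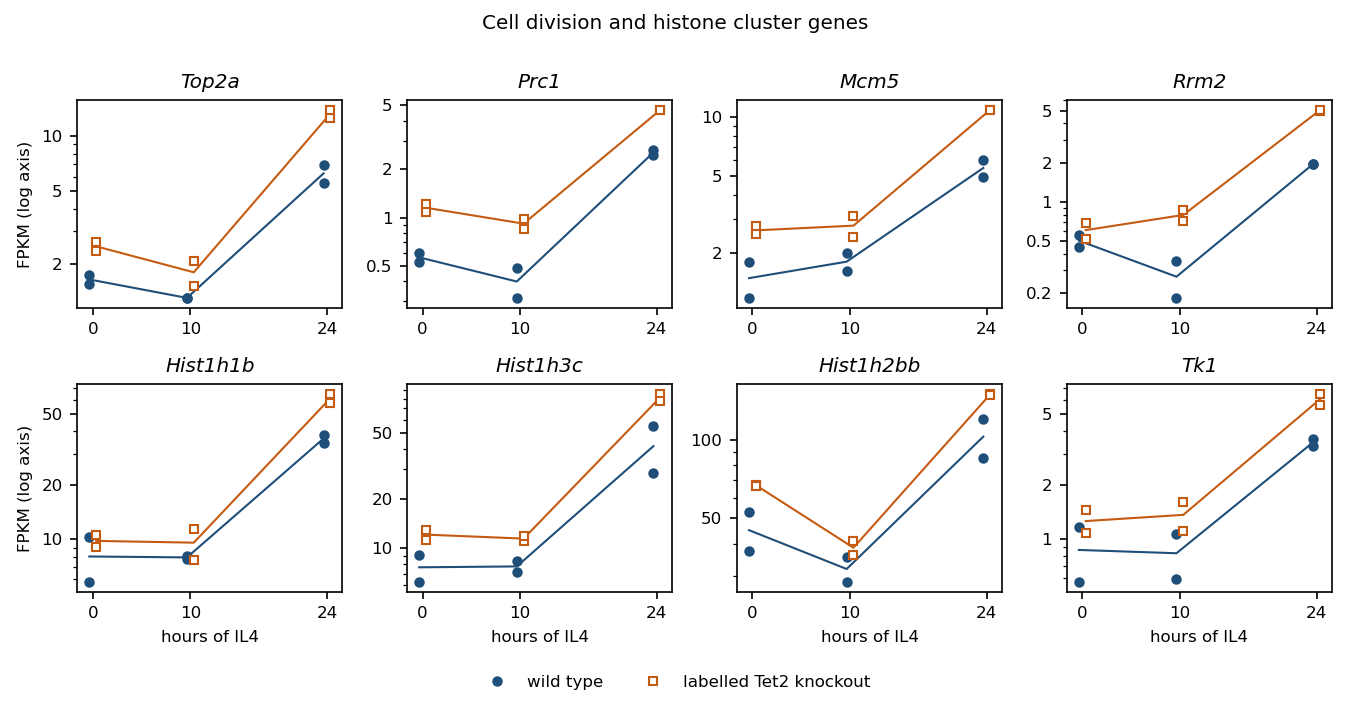
FPKM (log axis) against hours of IL4 for mitotic (Top2a, Prc1), replication (Mcm5, Rrm2, Tk1) and histone genes (Hist1h1b, Hist1h3c, Hist1h2bb), 1 point per library, with lines through the group means for wild type (filled circles) and labelled knockout (open squares). Each gene is highest at 24 h in both genotypes, and at 24 h both labelled knockout libraries lie above both wild-type ones. The genotypes were not compared by a test at 24 h. Of the 43 mitotic, 42 replication and 64 histone cluster genes tested, 0 passed the test of a difference between the genotypes' steps.

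The 120 bases before the start of 4 mitotic genes are shown because CCAAT boxes are so frequent in this list: 28 of the 38 members with a promoter (of 43 tested) hold CCAAT in their 250 bases (73.7%), as do 47 of 57 histone cluster promoters (82.5%) and 22 of 35 replication promoters (62.9%), against 37.5% of all promoters. Among promoters of genes tested the share with CCAAT was 40.9%. A high share was not particular to division genes. Promoters found for cholesterol synthesis held CCAAT in 15 of 16 (93.8%) and those for ER chaperones in 17 of 20 (85%). MHC class I had 12 of 15 (80%) and ribosome biogenesis 8 of 33 (24.2%). The E2F motifs stood in 5 of the 35 replication promoters (14.3%), against 1.51% of all promoters and 3.08% of those of genes tested. Capitals mark CCAAT on either strand. Prc1 lies at chr7:80294331-80294450 (plus), Top2a at chr11:99024190-99024309 (minus), Kif11 at chr19:37376262-37376381 (plus) and Kif22 at chr7:127042421-127042540 (minus), from RefSeq in GRCm38.p6. Kif11 and Kif22 encode mitotic kinesins, with steps of 1.00 ± 0.10 and 1.10 ± 0.11.
Prc1: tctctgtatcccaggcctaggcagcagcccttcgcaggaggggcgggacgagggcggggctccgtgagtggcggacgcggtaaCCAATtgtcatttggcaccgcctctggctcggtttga
Top2a: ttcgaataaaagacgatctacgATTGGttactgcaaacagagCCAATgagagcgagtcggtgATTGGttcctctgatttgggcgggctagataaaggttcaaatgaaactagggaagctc
Kif11: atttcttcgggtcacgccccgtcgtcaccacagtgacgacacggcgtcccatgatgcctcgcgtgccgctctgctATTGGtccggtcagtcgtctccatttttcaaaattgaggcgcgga
Kif22: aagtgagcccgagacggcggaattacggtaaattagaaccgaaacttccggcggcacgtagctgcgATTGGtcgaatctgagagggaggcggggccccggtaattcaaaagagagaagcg

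Fall-back genes reached their peak at 10 h and gave up part or all of it by 24 h. Of the 20, 10 returned to within 0.5 of their 0 h level or below it, and 10 stayed above it. Lair1, an inhibitory receptor for collagen, returned fully: 16.2 and 12.5 FPKM at 0 h, 42.6 and 44.4 at 10 h, 14.7 and 14 at 24 h (−1.53 ± 0.12). Plek, pleckstrin, a target of protein kinase C, ended below its start, with 191 and 144, then 358 and 347, then 135 and 125 FPKM (−1.44 ± 0.13). The lysozyme-like gene Lyzl4 had 0.976 and 1.24, then 8.82 and 7.88, then 1.72 and 0.581 FPKM (−2.17 ± 0.23), and the 24 h libraries differed from each other while both lay far below 10 h. Csf1, which encodes M-CSF itself, had 1.10 and 0.882, then 4.13 and 3.67, then 1.21 and 1.29 FPKM (−1.12 ± 0.11). Gnl3, nucleostemin of the nucleolus, also came back near its start, with 11.3 and 8.96, then 29.8 and 30.0, then 15 and 9.68 FPKM (−1.24 ± 0.18).

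Other fall-back genes returned only in part. Serpina3g, a protease inhibitor of leukocytes with near-identical neighbours, had 0.333 and 0.427 FPKM, then 26.7 and 29.1, then 9.44 and 10.1 (−1.42 ± 0.12). The monocyte chemoattractant Ccl7 had 2.07 and 3.50, then 183 and 170, then 64.2 and 65.8 FPKM (−1.42 ± 0.16). Sdc4, a heparan sulfate proteoglycan, had 100.0 and 88.7, then 591 and 577, then 215 and 250 (−1.33 ± 0.11). All 3 remained well above their 0 h libraries. Prps1, which makes the sugar phosphate for nucleotide synthesis, had 2.51 and 1.94, then 63.2 and 59.9, then 24.8 and 26.9 FPKM (−1.22 ± 0.10). Ptgs1, cyclooxygenase, had 10.9 and 9.27, then 113 and 111, then 49.2 and 57.4 FPKM (−1.06 ± 0.11). Ccl12, a chemokine of the same family as Ccl7, met the rule at −1.05 ± 0.24, but its limma call was lost without replicate 2 of 10 h (adjusted p = 0.0715) or replicate 1 of 24 h (0.0506). Their neighbour Ccl2, outside the rule, went from 177 and 161 to 98.0 and 103 FPKM (−0.74 ± 0.18; adjusted p = 0.0120, and 0.0833 without replicate 1 of 10 h).

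Promoters of the leading fall-back genes are given in the same form. Lyzl4 lies at chr9:121642122-121642371 (minus strand), Lair1 at chr7:4063205-4063454 (minus), Plek at chr11:17008719-17008968 (minus) and Serpina3g at chr12:104235897-104236146 (plus), from RefSeq in GRCm38.p6. Lair1 has capitals for a CCAAT box on the other strand and for the STAT6 spacing, Serpina3g for the STAT spacing, and Lyzl4 and Plek hold none of the 9 motifs in this window. CCAAT stood in 3 of the 16 fall-back promoters (18.8%), against 37.5% of all promoters and 40.9% of those of genes tested. The STAT6 spacing stood in 2 (12.5%), against 6.76% and 5.65%. These counts are small.
Lyzl4: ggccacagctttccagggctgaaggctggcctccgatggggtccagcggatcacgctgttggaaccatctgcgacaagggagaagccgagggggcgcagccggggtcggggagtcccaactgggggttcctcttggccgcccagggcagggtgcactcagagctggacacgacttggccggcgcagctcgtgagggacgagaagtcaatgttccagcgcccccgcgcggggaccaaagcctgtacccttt
Lair1: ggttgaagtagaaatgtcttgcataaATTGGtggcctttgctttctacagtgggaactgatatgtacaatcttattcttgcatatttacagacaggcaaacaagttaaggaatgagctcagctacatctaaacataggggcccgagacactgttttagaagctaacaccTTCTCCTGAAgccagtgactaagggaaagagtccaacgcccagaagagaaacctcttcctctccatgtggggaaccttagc
Plek: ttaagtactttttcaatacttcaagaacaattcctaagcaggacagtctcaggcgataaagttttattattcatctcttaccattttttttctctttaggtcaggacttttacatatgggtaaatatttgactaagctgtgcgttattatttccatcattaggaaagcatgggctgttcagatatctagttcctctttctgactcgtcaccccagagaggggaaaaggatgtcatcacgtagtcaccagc
Serpina3g: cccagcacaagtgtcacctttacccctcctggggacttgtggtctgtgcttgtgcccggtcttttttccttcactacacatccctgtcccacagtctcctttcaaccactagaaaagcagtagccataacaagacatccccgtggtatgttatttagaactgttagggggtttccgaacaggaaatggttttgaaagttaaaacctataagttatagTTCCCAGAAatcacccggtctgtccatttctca

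Early genes took every course afterwards. By 10 h, 548 genes were up by at least 1 (5.21% of genes tested). Of these, 111 rose further, 162 fell and 275 did not pass between 10 and 24 h (backgrounds 11.6% higher and 14.3% lower). The 10 h libraries that chose the 548 genes also start the later step, which favours falls among them. In the labelled knockout, whose libraries did not choose them, they gave 104, 132 and 312 (backgrounds 12.1% and 10.9%). Irf4, a factor needed for alternative activation, was an early plateau gene and had 1.31 and 1.27 FPKM at 0 h, 20.6 and 20.3 at 10 h and 22.6 and 24.1 at 24 h (0.18 ± 0.09; adjusted p = 0.152). Pdcd1lg2, the checkpoint ligand PD-L2, had 13.5 and 12.4 at 10 h and 10.7 and 14.1 at 24 h (−0.07 ± 0.12; adjusted p = 0.714). The arginine transporter gene Slc7a2 had 20.2 and 19.7, then 20.4 and 22.2 FPKM (0.09 ± 0.10; adjusted p = 0.529). Among the 213 plateau promoters found (of 261 genes), 39 held the E-box (18.3%), against 6.86% of all promoters and 10.4% of those of genes tested.

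The IL4 receptor chain itself was a late faller. Il4ra had 37.8 and 28.7 FPKM at 0 h, 40.0 and 42.5 at 10 h and 16.2 and 22.7 at 24 h (−1.06 ± 0.17; adjusted p = 0.00161), and in the labelled knockout it fell by 1.18 on the same scale. The common gamma chain gene Il2rg rose from 23 and 19.7 to 32.4 and 37.6 FPKM (0.69 ± 0.12; adjusted p = 0.00295). Stat6 had 37.9 and 37.8 at 10 h and 39.4 and 49.4 at 24 h and did not pass (0.22 ± 0.13; adjusted p = 0.247). The feedback inhibitor Socs1 had 0.585 and 0.735 FPKM at 0 h, 54.7 and 62.8 at 10 h and 26.8 and 50.6 at 24 h, which narrowly missed the threshold (−0.65 ± 0.22; adjusted p = 0.0528). Dusp5, a phosphatase that acts on ERK, rose from 2.15 and 2.82 to 9.67 and 14.4 FPKM (1.88 ± 0.17; adjusted p = 5.4e-05). Of 14 receptor and STAT6 pathway genes tested, Il2rg rose and Il4ra fell, shares no higher than the backgrounds of 11.6% and 14.3%. The higher count was 3 without replicate 1 of 24 h and 4 after median-of-ratios scaling.

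Of 30 complement and resident macrophage receptor genes tested, 5 rose and 7 fell between 10 and 24 h (backgrounds 11.6% and 14.3%), and 4 fell without replicate 2 of 10 h. Among other late fallers, Ednrb, an endothelin receptor, had 27.9 and 22.7 FPKM at 0 h, 23.8 and 26.7 at 10 h and 5.58 and 5.26 at 24 h (−2.03 ± 0.11). Cnrip1, which binds a cannabinoid receptor, went from 31.4 and 30.0 to 6.59 and 7.06 FPKM (−2.02 ± 0.10), Slc9a9, an endosomal proton exchanger, from 61.8 and 65.0 to 20.1 and 22.3 (−1.54 ± 0.11), and Dab2, an endocytic adaptor, from 50.5 and 54.7 to 20.4 and 21.8 (−1.28 ± 0.15). Falling throughout, the orphan receptor Gpr34 had 60.7 and 39.8, then 9.62 and 11.6, then 2.56 and 2.06 FPKM (−1.81 ± 0.18). The transcription factor gene Maf had 77.3 and 91.4, then 37.5 and 45.2, then 12.9 and 14.4 (−1.53 ± 0.12), and the iron exporter Slc40a1 had 78.3 and 74.5, then 8.73 and 9.70, then 2.58 and 3.16 (−1.40 ± 0.10). No library of a later time overlapped one of an earlier time for these 3 genes, which the same values had placed in this class. The groups at 10 and 24 h did not overlap for 63.3% of all genes tested. Going the other way, Ifitm6, an interferon-inducible membrane protein of a family with near-identical members, fell and came back, with 16.7 and 13.6, then 4.58 and 4.41, then 19.4 and 27.4 FPKM (2.13 ± 0.15). The phosphodiesterase gene Pde3b had 8.53 and 8.22, then 3.37 and 3.30, then 11.9 and 12.7 (1.62 ± 0.11).

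Alternative activation as a list did not move as 1 block: of 33 effectors tested, 21 rose and 5 fell (backgrounds 11.6% and 14.3%), with a median of 0.56. In the labelled knockout 15 rose and 4 fell (backgrounds 12.1% and 10.9%). In wild type the mannose receptor gene Mrc1, a standard marker, had 304 and 237 FPKM at 0 h, 725 and 719 at 10 h and 475 and 442 at 24 h, so it fell in the later step (−0.66 ± 0.13; adjusted p = 0.00476). F13a1, a transglutaminase of clotting, fell in both steps, with 190 and 193 at 10 h and 104 and 97.9 at 24 h (−0.92 ± 0.12). Igf1, a growth factor, fell from 194 and 208 to 122 and 125 FPKM (−0.70 ± 0.14) and the lectin gene Clec10a from 426 and 389 to 257 and 297 (−0.55 ± 0.13). Those calls were lost without replicate 2 of 10 h for Igf1 (adjusted p = 0.0541) and without replicate 1 of 10 h for Clec10a (0.0895). Ptgs1, described above, was the fifth. Fabp4, a fatty acid carrier, rose from 151 and 128 to 376 and 316 FPKM (1.30 ± 0.18), and the folate receptor gene Folr2 from 36.4 and 36.4 to 78.1 and 96.0 (1.23 ± 0.15).

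Sterol synthesis rose in both steps. Of 23 genes of cholesterol synthesis tested, 15 rose by 10 h (background 28.2%), with a median of 0.56. Between 10 and 24 h 18 rose (background 11.6%), with a median of 0.63, and 15 rose in the labelled knockout (background 12.1%). Fdps, which makes farnesyl diphosphate, went from 28.0 and 28.9 to 92.7 and 106 FPKM (1.76 ± 0.14). Mvd went from 9.24 and 10.1 to 17.6 and 26.9 (1.09 ± 0.16) and Idi1 from 12.1 and 12.6 to 28.6 and 25.0 (1.06 ± 0.12). Both 24 h libraries lay above both 10 h ones for each of these, though groups did not overlap for 63.3% of all genes tested. LXR targets and sterol export genes gave 2 of 15 higher, near the background of 11.6%, and 5 lower (background 14.3%). The higher count was 4 after median-of-ratios scaling or quantile normalization and 5 without replicate 1 of 24 h. Among the lower, the apolipoprotein genes Apoc1 and Apoc2 fell by 1.47 ± 0.21 and 1.06 ± 0.19.

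ER chaperone genes had mostly risen before this interval, 18 of 22 by 10 h (background 28.2%), with a median of 0.91. Between 10 and 24 h the median was 0.39, and 11 rose (background 11.6%) and 1 fell (background 14.3%). The 1 that fell was Ssr1 (−0.39 ± 0.08), whose call was lost without replicate 1 of 10 h. In the labelled knockout 13 rose (background 12.1%). In wild type without replicate 2 of 10 h, 7 rose. Creld2, an ER disulfide isomerase, went from 18.1 and 16.8 to 60.9 and 71.0 FPKM (1.86 ± 0.14). Hspa5, the chaperone BiP, went from 386 and 357 to 795 and 662 (0.96 ± 0.15), and calreticulin, Calr, from 324 and 295 to 563 and 600 (0.91 ± 0.12). The ER stress element stood in 8 of the 20 promoters found for this list (40%), against 0.13% of all promoters and 0.167% of those of genes tested. The sites of 3 of them are shown with 20 bases on each side and the element in capitals, on the other strand in Creld2 and Calr. They lie at chr2:34772005-34772063 (plus) for Hspa5, chr15:88819500-88819558 (plus) for Creld2 and chr8:84847055-84847113 (minus) for Calr, from RefSeq in GRCm38.p6.
Hspa5: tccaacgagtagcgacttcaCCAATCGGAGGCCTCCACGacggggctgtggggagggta
Creld2: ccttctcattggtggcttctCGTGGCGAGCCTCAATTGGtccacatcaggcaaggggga
Calr: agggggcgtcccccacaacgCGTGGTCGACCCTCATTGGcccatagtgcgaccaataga

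Ribosome biogenesis turned downward. Of 39 nucleolar genes tested, 37 had risen by 10 h (background 28.2%), and between 10 and 24 h 24 fell and 1 rose (background for lower calls 14.3%), with a median of −0.40. In the labelled knockout 24 fell (background 10.9%). Without replicate 1 of 10 h 13 fell, and without replicate 2 of 10 h 15 fell. Ncl, nucleolin, went from 6.95 and 7.16 to 2.83 and 2.97 FPKM (−1.05 ± 0.14), the helicase Ddx21 from 30.6 and 29.9 to 18.5 and 17.3 (−0.73 ± 0.09), and Wdr43 from 18.4 and 16.8 to 11.8 and 10.5 (−0.62 ± 0.09). The groups did not overlap for any of these genes, nor for 33 of the 39 on the list and 63.3% of all genes tested. Oxidative phosphorylation, of which 36 of 37 genes had risen by 10 h, gave 4 higher by 24 h, near the background of 11.6%. In the labelled knockout 0 of the 37 passed as higher in limma after adjustment (background 12.1%), and 1 did at an unadjusted p under 0.05. The wild-type count was 15 after median-of-ratios scaling, 7 without replicate 1 of 24 h, 2 without replicate 2 of 24 h or replicate 1 of 10 h, and 1 without replicate 2 of 10 h.

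Glycolysis and hypoxia genes gave 14 of 29 higher and 3 lower (backgrounds 11.6% and 14.3%), with a median of 0.40. In the labelled knockout 6 were higher and 4 lower (backgrounds 12.1% and 10.9%). The higher count in wild type was 9 without replicate 1 of 10 h and 7 without replicate 2 of 10 h. Ankrd37, a hypoxia-responsive gene, went from 4.32 and 3.39 to 15 and 16.7 FPKM (1.80 ± 0.12). Pyruvate kinase, Pkm, went from 286 and 259 to 470 and 582 (0.94 ± 0.13), and the lactate exporter gene Slc16a3 from 14.7 and 13.2 to 22.2 and 34.6 (0.95 ± 0.18). Circadian genes in wild type gave 1 of 12 higher and 5 lower (backgrounds 11.6% and 14.3%), or 2 lower without replicate 1 of 10 h and 3 without replicate 1 of 24 h. Bhlhe40, a clock repressor that IL4 also induces, rose from 9.91 and 9.65 to 20.0 and 22.7 FPKM (1.05 ± 0.10). The clock output factor gene Dbp fell from 6.19 and 6.35 to 1.97 and 3.41 (−1.01 ± 0.20), and Nr1d2, a nuclear receptor of the clock, from 13.6 and 12.7 to 6.97 and 6.90 (−0.83 ± 0.10).

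Inflammatory cytokines and chemokines split in direction, with 8 of 29 higher and 9 lower (backgrounds 11.6% and 14.3%). In the labelled knockout 3 were higher and 12 lower (backgrounds 12.1% and 10.9%). In wild type without replicate 2 of 10 h, 5 were higher. Ccl8, Ccl6 and Ccl9, chemokines for monocytes, eosinophils and other myeloid cells, rose by 1.35 ± 0.12, 0.97 ± 0.13 and 0.72 ± 0.13, with Ccl8 at 125 and 119 FPKM going to 295 and 331. Ccl3 fell from 38.6 and 47.0 to 19.4 and 22.1 FPKM (−1.01 ± 0.13), and the costimulatory receptor gene Cd86 from 40.3 and 38.7 to 21.0 and 18.8 (−0.95 ± 0.11). Matrix and protease genes gave 11 of 21 higher and 5 lower in wild type, but 7 higher and 9 lower in the labelled knockout (backgrounds 12.1% and 10.9%). Their higher count was 7 without replicate 2 of 10 h, and the lower count was 3 without either 10 h library or without replicate 1 of 24 h.

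**Figure D3:**
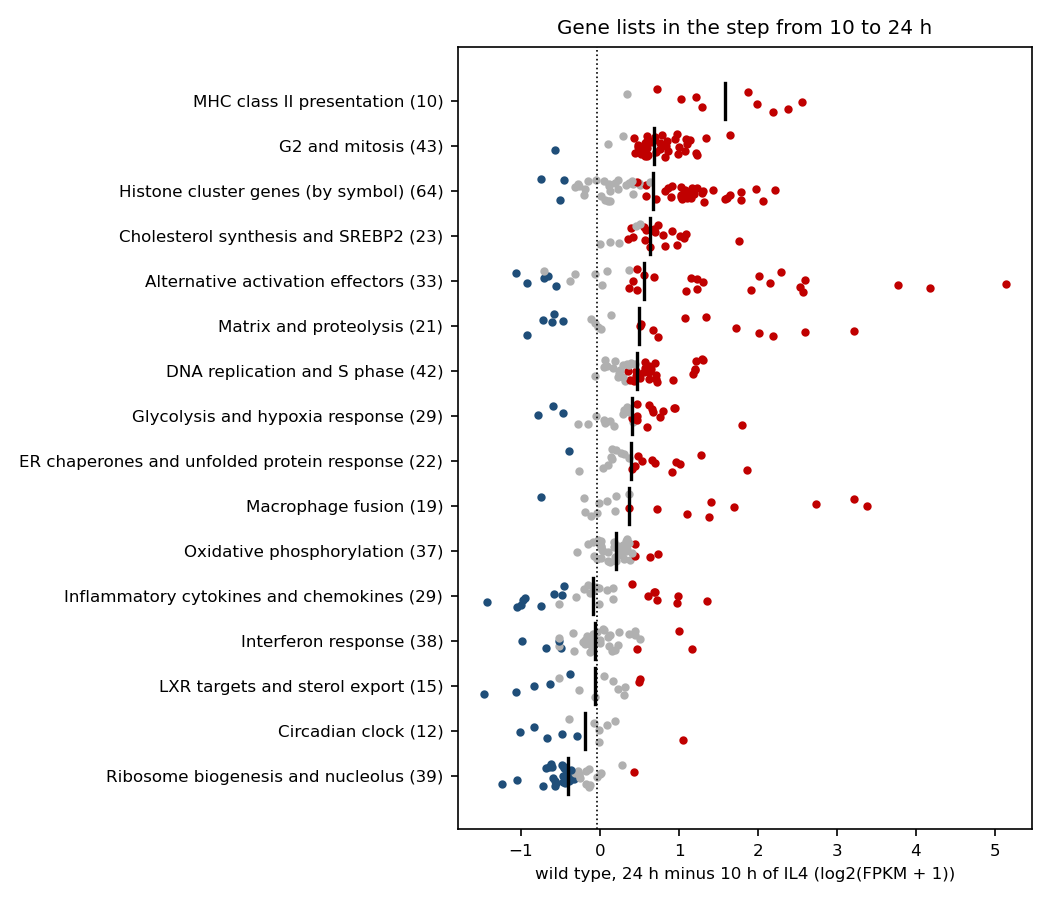
Difference between 24 and 10 h in wild type (log2(FPKM + 1)) for each tested member of 16 gene lists, ordered by median. Red and blue points passed as higher and lower, grey points did not pass, black bars are list medians (from 1.58 for MHC class II to −0.40 for ribosome biogenesis) and the dotted line is the median of all genes tested.

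The step in the labelled knockout, which did not enter the rule that placed the genes, went the same way for most of them. Of 90 late risers, 82 rose between 10 and 24 h (91.1%, against 12.1% of genes tested), with medians of 1.30 in wild type and 1.36 in the labelled knockout. Of 20 fall-back genes, 17 fell (85%, against 10.9%), with medians of −1.23 and −1.13. Of 30 late fallers 25 fell (83.3%), as did all 7 genes that fell in both steps. Of the 6 genes that fell and then rose in wild type, 3 rose, 2 fell (Thbs1 and Gm8615) and 1 did not pass in the labelled knockout. Among late risers 1 small nucleolar RNA gene fell in the labelled knockout, and 7 did not pass there: Ear3, Timp1, Npy, Il1rn, Ift43, Hist1h2bc and a microRNA gene. Il1rn, the interleukin-1 receptor antagonist, had 4.12 and 4.48 going to 10.1 and 11.4 FPKM in wild type (1.15 ± 0.13), against 5.62 and 6.99 going to 6.27 and 6.97 in the labelled knockout (0.07; adjusted p = 0.759). The difference of these steps did not pass (−1.08; adjusted p = 0.0836).

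Over all genes, 6 of 10510 (0.0571%) passed the test of a difference between the genotypes' steps. Thbs1, the matrix protein thrombospondin, rose in wild type from 5.91 and 6.80 to 12.9 and 16.2 FPKM and fell in the labelled knockout from 13.3 and 13.9 to 9.47 and 8.97. Timp1, an inhibitor of metalloproteinases, had 4.06 and 3.08 going to 9.91 and 11.1 in wild type, against 18.0 and 19.3 going to 13.1 and 15.9. For both genes the labelled knockout was higher at 10 h. Markers of fibroblasts and stroma were higher there too, summing to 26.1 and 27.4 FPKM against 6.39 and 5.82 in wild type. They fell to 12.7 and 13.2 by 24 h, against 3.39 and 3.27. Whether the make-up of the cultures has a part in these differences was not tested. Ear3 had 9.3e-05 and 0.272 going to 3.80 and 4.25 FPKM in wild type and was listed at 0 in both labelled knockout libraries at 24 h, where its relative Ear2 stood at 54.4 and 75.8. The others were Irg1, the enzyme that makes itaconate, and 2 gene models without a name. Counts of such genes depended on the settings, from 3 to 28.

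**Figure D4:**
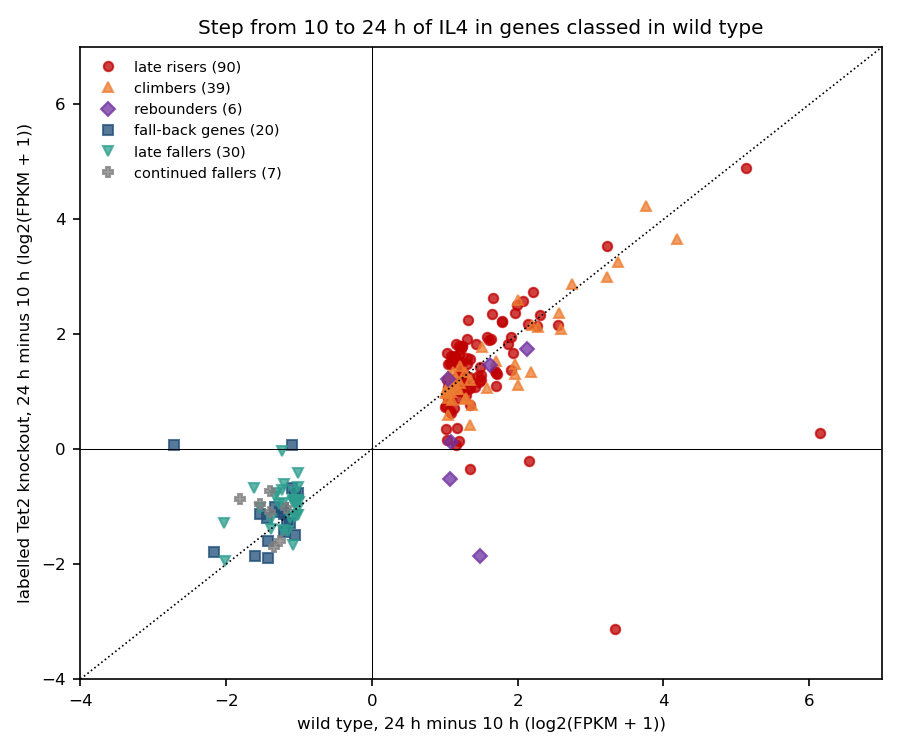
Step from 10 to 24 h in wild type (horizontal) against labelled knockout (vertical), both as log2(FPKM + 1) differences, for the genes of 6 classes placed by wild-type values, with equality as a dotted line. Nearly all lie in the quadrants of shared direction, 82 of 90 late risers and 17 of 20 fall-back genes passing in the labelled knockout, and the few on or across the horizontal axis include Timp1, Ear3 and Thbs1.

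Macrophage genes were abundant in all 4 libraries: 10 marker genes summed to 11320 to 11404 FPKM at 10 h and 10466 to 12624 at 24 h. Of these, 2 rose and 2 fell (backgrounds 11.6% and 14.3%). Emr1 was among those that fell (−0.46), and its call was lost without either 10 h library or replicate 1 of 24 h. Markers of T and NK cells summed to 1.17 to 1.44 and 0.555 to 0.778 FPKM, with 6 of 14 (Cd3g among them) listed at 0 in all 4 libraries, and those of B cells to 1.19 to 1.21 and 1.43 to 1.73, with Pax5 among the 6 of 12 listed at 0. Markers of eosinophils, basophils and mast cells summed to 1.02 to 1.26 and 1.27 to 1.72 FPKM, with all 14 below 1 in every library, beside the rise of the eosinophil-associated ribonucleases. Dendritic cell markers summed to 70.0 to 71.7 and 71.8 to 97.7 FPKM, most of it Batf3, which the plateau holds, while 7 of 10 were below 1. Of the 3 tested, Zbtb46 passed as higher in limma (0.38; adjusted p = 0.0354), and its call was lost without any 1 of the 4 libraries. Neutrophil markers summed to 107 to 132 and 155 to 157 FPKM, of which S100a9 and Mmp8 passed as higher and Csf3r as lower. The call of S100a9 was lost without replicate 2 of 10 h (adjusted p = 0.289), replicate 1 of 24 h (0.159) or replicate 2 of 24 h (0.0513), and that of Mmp8 without replicate 1 (0.101) or replicate 2 (0.0614) of 10 h. Endothelial markers summed to 7.88 to 7.93 and 16.8 to 21.2, of which Vwf, a climber, had 4.84 and 4.85 at 10 h and 14.4 and 18.8 FPKM at 24 h. Fibroblast and stromal markers summed to 5.82 to 6.39 and 3.27 to 3.39 FPKM, and 1 of 5 tested passed as lower. In the labelled knockout they were higher, at 26.1 and 27.4 FPKM at 10 h and 12.7 and 13.2 at 24 h, with 4 of 5 lower (background 10.9%). Erythroid markers summed to 1.14 to 1.19 and 0.564 to 0.794 FPKM. The part of all these cells in the results was not tested.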

How the data were processed

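FPKM per gene and library were deposited by the authors, and per the submitters' processing notes reads went through TopHat and Cuffdiff on mm9. Versions, annotation and any scaling by Cuffdiff are not given in the sources used here. Of 23309 gene models, 2 repeated symbols were dropped, 27 read as dates, and 23154 of 23307 matched the reference.

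All 12 BMDM libraries (6 groups of 2) were fitted as log2(FPKM + 1) with limma 3.58.1 in R 4.3.3 (intensity trend, 6 residual and 10.3 moderated degrees of freedom). Benjamini-Hochberg adjustment covered the 10510 genes that reached 1 FPKM in at least 2 libraries, with a threshold of 0.05. The code was tested on simulated data. FPKM differences on this scale understate the change of low genes. p-values measure the spread between these libraries. Replicate numbers were not used as pairs: deviations of same-numbered wild-type libraries at 10 and 24 h correlated at −0.02 over genes.

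The members and gene lists were chosen with earlier results of these data known, and the histone cluster list was added after its values were seen. Named were the 15 highest and 15 lowest differences with a mean of at least 5 FPKM, the 10 or 5 largest steps per class, up to 4 members per list by p, and 12 fixed genes. Others among those described, such as H2-Eb1, Ccl22, S100a10, Itgb2, Cd36, Ctss, Csf1, Ptgs1, Mrc1, Ccl12 and Il1rn, were named after their values were seen. Promoters came from RefSeq (GRCm38.p6), matched by symbol or synonym. Alternatives were the pseudocount (0.1), the filter, 2 other scalings, fewer libraries in the fit, a replicate block, a 1.5-fold step and each library left out. Figures used Python 3.11.15 and matplotlib 3.10.9.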

Additional observations from a re-analysis of the deposited data

Results flagged for a closer look

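In 4 named genes the step from 10 to 24 h differed between wild type and labelled knockout by a test of the difference itself (limma, adjusted over all genes tested, labelled knockout minus wild type, log2 scale). Thbs1 gave −1.59 (adjusted p = 0.00504), rising in wild type and falling in the labelled knockout. Timp1 gave −1.68 (adjusted p = 0.00738), with all 4 labelled knockout libraries above the 4 wild-type ones at these times. Ear3 gave −2.36 (adjusted p = 0.00374). It was listed at 0 in 3 of the 4 labelled knockout libraries, and its reads can be split with near-identical relatives. Irg1 gave −0.98 (adjusted p = 0.0409), with 2.18 and 2.11 FPKM going to 2.47 and 2.49 in wild type, against 4.48 and 4.88 going to 2.00 and 2.38 in the labelled knockout.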

How the results depend on the processing

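Of 203 named genes past the threshold between 10 and 24 h in wild type, 161 passed under every setting in which they were tested and 0 changed direction, and with 1 FPKM required in every library only 158 were tested. Counts moved more. With fewer libraries in the fit, wild type gave 638 higher and 623 lower (wild-type libraries only) or 651 and 681 (the 4 compared only), and the labelled knockout gave 1797 lower. With 1 library left out, where the lone library is assumed to vary like the other groups, wild type gave 583 to 1495 higher and 647 to 1935 lower, and the labelled knockout 679 to 928 higher and 557 to 647 lower. The difference between genotypes gave 3 genes with a pseudocount of 0.1 or with 1 FPKM required in every library, 11 without a filter, 15 after median-of-ratios scaling and 28 after quantile normalization. A pseudocount of 0.1 gave 148 late risers, 73 climbers, 43 fall-back genes, 80 late fallers, 31 falling in both steps and 29 falling then rising. Requiring 1 FPKM everywhere gave 24 climbers and 12 fall-back genes. Median-of-ratios scaling gave 156 plateau genes, 19 late fallers and 12 falling then rising, and quantile normalization 56 late risers, 148 plateau genes and 14 falling in both steps. A step of 1.5-fold gave 289 late risers, 140 climbers, 167 fall-back genes, 945 plateau genes, 169 late fallers, 68 falling in both steps and 74 falling then rising. With 1 library left out there were 70 to 105 late risers, 33 to 44 climbers, 17 to 31 fall-back genes, 168 to 342 plateau genes, 26 to 39 late fallers, 6 to 11 falling in both steps and 5 to 11 falling then rising. The cause of these shifts was not tested, except that fewer libraries leave fewer degrees of freedom.

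The replicate numbers do not mark shared animals or days in the labels. A replicate block gave 1075 genes higher and 1271 lower in wild type, 1160 and 999 in the labelled knockout, 5 differing between genotypes, and 88 late risers, 39 climbers, 20 fall-back genes, 278 plateau genes and 28 late fallers. FPKM hold no counts, so what depth allows cannot be stated for a gene.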

Other observations

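Several receptors and transporters outside the comparisons above changed between 10 and 24 h in wild type (limma, adjusted over all genes tested). Ccr2, the receptor for Ccl2 and Ccl7, rose from 5.26 and 5.51 to 16.1 and 14.3 FPKM (1.34 ± 0.15), while those ligands fell, and it rose by 1.75 in the labelled knockout. Cd28, a costimulatory receptor best known from T cells, fell from 40.3 and 39 to 12.9 and 13.3 FPKM (−1.52 ± 0.08). The 14 T and NK cell markers together also fell, from 1.17 to 1.44 FPKM at 10 h to 0.555 to 0.778 at 24 h. The 1 of them tested passed as lower. The source of the Cd28 message was not tested. The amino acid transporter genes Slc3a2 and Slc7a5, partners in 1 complex, fell by 0.95 ± 0.13 and 0.81 ± 0.12, whereas Psat1 and Mthfd2, of serine and folate metabolism, rose by 0.77 ± 0.14 and 0.83 ± 0.09. Suclg2, of the citric acid cycle, fell from 12.7 and 13.3 to 6.30 and 5.67 FPKM (SE 0.11 on a log2 difference of −1.0). Of 25 citric acid cycle genes tested, 2 rose and 1 fell (backgrounds 11.6% and 14.3%), with a median of 0.12.

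Of 23 cell-cycle inhibitors and G1 regulators tested, 4 rose and 5 fell between 10 and 24 h (backgrounds 11.6% and 14.3%). Their median was 0.02, and with wild-type libraries only 2 rose and 2 fell. Cdkn1a, a cell-cycle inhibitor, had 4.32 and 5.85 FPKM at 0 h, 17.6 and 15.5 at 10 h and 7.93 and 9.75 at 24 h. Its later step was −0.84 ± 0.13. Rbl1, a relative of the retinoblastoma protein, rose from 2.90 and 2.93 to 5.30 and 5.24 FPKM (0.68 ± 0.10).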
